A study of Homo sapiens with 6 samples.

Results

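The genes described here are 10 stress response genes of the integrated stress response and its neighbours: ATF4, DDIT3, DDIT4, GADD45A, GADD45B, PPP1R15A, SESN2, TRIB3, CHAC1 and CEBPB. They are 10 of the 57500 genes in the deposited table, and all 10 were found by symbol. They were chosen by their differences between control and PRMT1 libraries in these data, as ATF4 and related stress genes among which GADD45A, GADD45B and DDIT3 were lower and TRIB3 higher with PRMT1. Their differences between the groups are therefore given as a description, with no test. RNA was sequenced after polyA selection from HEK293T cells, a transformed human embryonic kidney line, in 6 libraries. In the 3 control libraries the genotype is given as WT and the treatment as vector control, under the title mock. The 3 others, labelled PRMT1 OV, are from cells transfected, using PolyJet, with a pcDNA3 plasmid holding PRMT1, the main enzyme for asymmetric arginine dimethylation. The labels do not say which plasmid or reagent the control cells received, nor how long after transfection RNA was taken, so effects of the transfection and of PRMT1 cannot be told apart. Separate cultures are not stated for the replicates, so a p-value here reflects only how these libraries vary, which can be technical variation. Control replicate 3 and PRMT1 replicate 2 stood apart from the rest of their groups on the first principal components, and results that change without them are given with and without them.

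The integrated stress response starts when kinases that sense endoplasmic reticulum stress, amino acid shortage, heme or mitochondrial stress, or double-stranded RNA phosphorylate the translation factor eIF2. General protein synthesis then slows while the messenger of ATF4, a bZIP transcription factor, is translated better because of short open reading frames upstream of its coding sequence. ATF4 raises genes for amino acid supply and, with partners such as CHOP (the product of DDIT3) and C/EBP proteins, genes that end the response or lead to cell death. The measured RNA levels give neither the amount of ATF4 protein nor the phosphorylation of eIF2.

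The upstream stretches of 7 of the genes are shown because the genes differ in direction between the groups and are often described together as targets of ATF4. The sequences are from RefSeq (GRCh38.p14), read 5′ to 3′ on the strand of the gene. Each is a stretch of at most 100 bases before a RefSeq start that holds no GENCODE 29 exon, except the 29 bases of CHAC1, which lie in an annotated CHAC1 exon. The stretches of DDIT3 and TRIB3 lie within the GENCODE bounds of these genes given below, since GENCODE 29 also lists transcripts that begin farther upstream. Capitals mark CCAAT or its reverse ATTGG in DDIT3, GADD45B, SESN2 and DDIT4, TATAAA in GADD45B, TGACGTCA in PPP1R15A, GGGCGG in TRIB3 and a match to TGATGNAAN on the other strand in CHAC1.
DDIT3 (chr12:57520518-57520617, minus strand): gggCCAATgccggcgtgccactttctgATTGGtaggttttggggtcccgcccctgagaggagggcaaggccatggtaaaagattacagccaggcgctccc
GADD45B (chr19:2476022-2476121, plus strand): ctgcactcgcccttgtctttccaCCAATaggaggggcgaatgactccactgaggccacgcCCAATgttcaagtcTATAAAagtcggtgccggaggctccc
DDIT4 (chr10:72273820-72273919, plus strand): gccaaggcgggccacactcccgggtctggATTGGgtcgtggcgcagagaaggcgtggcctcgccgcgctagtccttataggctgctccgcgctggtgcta
PPP1R15A (chr19:48872292-48872391, plus strand): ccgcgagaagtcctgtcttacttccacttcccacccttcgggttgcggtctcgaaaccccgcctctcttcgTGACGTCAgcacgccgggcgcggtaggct
TRIB3 (chr20:381170-381245, plus strand): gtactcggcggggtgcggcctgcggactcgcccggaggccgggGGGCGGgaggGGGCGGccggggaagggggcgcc
SESN2 (chr1:28259418-28259517, plus strand): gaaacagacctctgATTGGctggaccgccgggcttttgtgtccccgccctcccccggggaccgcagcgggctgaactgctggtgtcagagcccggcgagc
CHAC1 (chr15:40953251-40953279, plus strand): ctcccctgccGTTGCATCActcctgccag

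Motifs were searched on both strands in the 250 bases before each RefSeq start. The table holds such windows for 9 of the 10 genes, GADD45A being the exception, and for 27305 genes in all, some with several starts, and a gene was counted once if any of its windows held the motif. TGATGNAAN, the core of the composite element that ATF4 binds with C/EBP proteins, was found in CHAC1 alone of these 9, starting 210 bases before the start, and in 3.87% of all genes. Its stricter form TGATGCAAT was in none of the 9 and in 0.271% of all genes. TGACGTCA, the cyclic AMP response element, was found in PPP1R15A, 58 bases before the start, and in 2.03% of all genes. The endoplasmic reticulum stress element was in none of the 9 and in 0.0916% of all genes. Of motifs chosen after the results were known, CCAAT was in 6 of the 9 and 37.0% of all genes, TATAAA in 4 and 13.0%, and GGGCGG in 5 and 46.2%. TGATGCAAT is a special case of TGATGNAAN, and CCAAT is the first part of the stress element. A match describes the letters only, and the absence of one says nothing about sites elsewhere in the gene.

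Levels are given as TPM, a measure of transcript abundance that corrects for gene length and library size. Between 18196807 and 23163979 reads per library were recovered from the values, and a member rests on 60 to 16704 reads in a library. PRMT1 itself was at 381 ± 14.7 TPM in the control libraries (SD, n = 3) and was 192-fold higher in the PRMT1 libraries, so each library matched its label. The epithelial keratins KRT8 and KRT18 averaged 79.3 and 86.8 TPM over all libraries, and the summed epithelial markers were at 167 to 191 TPM in the control libraries against 163 to 180 TPM with PRMT1. KRT19 was near 0, and of 4 kidney development markers only PAX2 and LHX1 reached 1 TPM in 3 libraries. None of the blood, endothelial or hepatocyte markers reached 1 TPM in 3 libraries, CD3E was at 0 throughout, and of 4 fibroblast markers only COL1A1 reached it. The summed fibroblast markers were at 12.3 to 17.1 TPM in the control libraries against 9.34 to 10.8 TPM with PRMT1, and their part in the results was not tested. In such bulk RNA, fewer cells with a transcript and less of it per cell cannot be told apart.

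All 10 genes passed the filter of 1 TPM in at least 3 libraries, and for all 10 the 3 control and 3 PRMT1 values did not overlap. The same holds for 61.4% of the 15341 genes that passed the filter. Of the 10, 6 were lower with PRMT1, where 11.6% of all tested genes were lower without overlap, and 4 were higher, against 49.8%. These counts follow from how the genes were chosen. The median log2 difference of the 10 was -0.31, beside 0.30 over all tested genes. Log2 differences here are of log2(TPM + 1), PRMT1 minus control, from limma, with their standard error (SE).

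**Figure D1:**
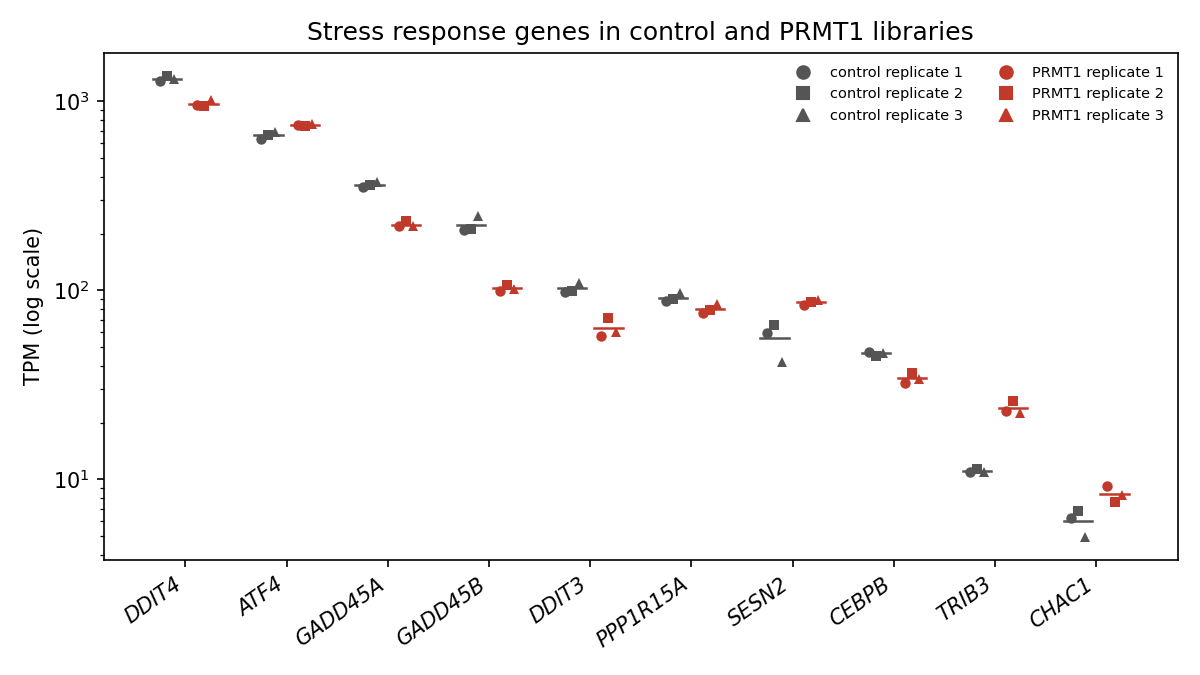
TPM (log axis) of the 10 stress response genes in each library, ordered by the control mean, with controls in grey, PRMT1 libraries in red, one symbol per replicate and a line at each group mean. GADD45B, GADD45A, DDIT3, DDIT4, CEBPB and PPP1R15A are lower in the PRMT1 libraries, and TRIB3, SESN2, CHAC1 and ATF4 are higher.

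ATF4 (ENSG00000128272, chr22:39519695-39522685) encodes the central transcription factor of the response. Its messenger was slightly higher with PRMT1. It was at 629, 666 and 688 TPM in control replicates 1 to 3 and at 751, 744 and 755 TPM in PRMT1 replicates 1 to 3. The PRMT1 libraries lay close together, with a coefficient of variation of 0.697%, and all lay above the highest control. The log2 difference was 0.18 (SE 0.06), which is 0.12 below the median of all tested genes. Its sign depended on the scaling, with -0.17 after median-of-ratios scaling and -0.06 after a correction for GC content. In the other direction, it was 0.44 under quantile normalization and 0.29 with PRMT1 taken out of the table and the rest rescaled.

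DDIT3 (ENSG00000175197, chr12:57516588-57521737) encodes CHOP, the bZIP factor that links prolonged stress to cell death. It was at 98.1, 99.7 and 110 TPM in the control libraries, against 57.3, 71.9 and 60.0 TPM in the PRMT1 libraries. Every PRMT1 library was below every control, and the mean was 1.63-fold lower. The log2 difference was -0.70 (SE 0.10), and 343 of the 15341 tested genes had a lower one. Of the 1307 exonic bases of DDIT3, 355 overlap exons of MARS1 on the opposite strand, and the strand setting of the counting is not given in the sources used here. MARS1, the methionyl-tRNA synthetase gene, was higher with PRMT1, at 54.3 ± 10.3 TPM in the control libraries against 92.9 ± 1.01 TPM in the PRMT1 libraries (SD, n = 3). Relative to MARS1 in the same library, DDIT3 was at 159 to 259% in the controls and 62.2 to 77.8% with PRMT1. MBD6, which shares 58 exonic bases with DDIT3 on the opposite strand, was also higher, at 9.18 ± 0.974 against 15.9 ± 0.145 TPM. The protein-coding gene AC022506.1 shares 105 exonic bases with DDIT3 on the same strand, where a strand setting would not separate the reads.

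CEBPB (ENSG00000172216, chr20:50190734-50192689) is a gene with a single exon for a C/EBP factor that dimerizes with ATF4 and CHOP. Its values were 47.4, 45.1 and 46.9 TPM in the control libraries against 32.5, 36.8 and 33.9 TPM with PRMT1. The groups were apart by more than the range within either, with a log2 difference of -0.43 (SE 0.08) and a mean 1.35-fold lower. Its antisense partner CEBPB-AS1 covers 231 of its 1956 exonic bases, and reads of the pair cannot be told apart without strand.

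The growth arrest genes GADD45A and GADD45B encode small proteins that bind PCNA and activate the stress kinase MAP3K4. GADD45A (ENSG00000116717, chr1:67685061-67688338) was at 354, 361 and 374 TPM in the control libraries, against 219, 232 and 218 TPM with PRMT1. The replicates were tight in both groups and the mean was 1.63-fold lower, a log2 difference of -0.70 (SE 0.06). GADD45B (ENSG00000099860, chr19:2476122-2478259) was at 208, 211 and 248 TPM in the control libraries, against 99.9, 107 and 102 TPM with PRMT1. It had the lowest difference of the 10 genes, -1.10 (SE 0.08) or 2.16-fold, and 125 tested genes lay lower. Control replicate 3 was the highest control for both genes. GADD45B stood at 58.6, 58.5 and 66.3% of GADD45A in the controls and at 45.6, 46.1 and 46.7% with PRMT1, so it was lower also relative to its paralog. The remaining paralog GADD45G rested on 2 to 4 reads in each library and was not tested.

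PPP1R15A (ENSG00000087074, chr19:48872392-48876057) encodes GADD34, which brings protein phosphatase 1 to eIF2 and so ends the response. It was at 87.5, 90.0 and 97.5 TPM in the control libraries, against 76.3, 78.8 and 84.7 TPM with PRMT1. The groups were separated by the small step between 84.7 and 87.5 TPM, with a log2 difference of -0.20 (SE 0.08). With PRMT1 taken out of the table and the rest rescaled, this was -0.09. The gene lies 799729 bases from PRMT1 on the same chromosome.

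TRIB3 (ENSG00000101255, chr20:362835-397559) encodes a pseudokinase that is induced by ATF4 and CHOP and in turn restrains them. It went the other way from DDIT3, at 11.0, 11.3 and 10.9 TPM in the control libraries against 22.9, 26.1 and 22.6 TPM in the PRMT1 libraries. Both groups were tight, and the mean was 2.16-fold higher. The log2 difference was 1.04 (SE 0.09), and 1371 tested genes had a higher one. These values rest on 219 to 236 reads per control and 443 to 578 reads per PRMT1 library. The ratio of TRIB3 to DDIT3 within a library was 11.2, 11.3 and 9.86% in the controls and 39.9, 36.3 and 37.7% with PRMT1, a 3.52-fold difference of the means that no scaling of whole libraries can alter.

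CHAC1 (ENSG00000128965, chr15:40952962-40956519) encodes an enzyme that degrades glutathione and is a known ATF4 target. It had the lowest level of the 10 genes, at 6.29, 6.77 and 4.98 TPM in the control libraries against 9.29, 7.61 and 8.26 TPM with PRMT1. The lowest PRMT1 library and the highest control were 0.84 TPM apart, and the counts behind these values were 60 to 83 and 97 to 125 reads. The log2 difference was 0.43 (SE 0.14), near the 0.30 of all tested genes, and it was -0.03 under quantile normalization. Relative to ATF4, PRMT1 replicate 2 and control replicate 2 were level at 1.02%.

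SESN2 and DDIT4 both encode inhibitors of mTORC1, the kinase complex that promotes protein synthesis, and they differed in direction. SESN2 (ENSG00000130766, chr1:28259527-28282491), the gene of a leucine-binding sestrin, was at 59.9, 66.0 and 41.7 TPM in the control libraries, against 84.0, 87.2 and 88.5 TPM with PRMT1. Control replicate 3 was well below the other controls, which gave SESN2 the widest spread of the 10 genes, with a coefficient of variation of 22.7%. The log2 difference was 0.65 (SE 0.16), and 0.45 without that library. DDIT4 (ENSG00000168209, chr10:72273920-72276036), the gene of REDD1, was the most abundant of the 10, at 1276, 1362 and 1319 TPM in the control libraries against 955, 951 and 1012 TPM with PRMT1. Its log2 difference was -0.44 (SE 0.06), a mean 1.36-fold lower. DDIT4-AS1 overlaps 847 of its 2058 exonic bases on the opposite strand. SESN2 stood at 4.69, 4.85 and 3.16% of DDIT4 in the controls and 8.80, 9.18 and 8.75% with PRMT1.

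In the controls the order of the mean levels was DDIT4, ATF4, GADD45A, GADD45B, DDIT3, PPP1R15A, SESN2, CEBPB, TRIB3 and CHAC1. SESN2 and CEBPB overlapped there, and DDIT3 and PPP1R15A were separated only by the step from 97.5 to 98.1 TPM. With PRMT1 the order differed in the position of SESN2, which came before PPP1R15A and DDIT3, while DDIT3 went from rank 5 to rank 7. SESN2 and PPP1R15A overlapped in the PRMT1 libraries. Levels within a group are not part of how the genes were chosen, but the change of order between the groups rests on the differences that were. Most of the 10 are abundant, with 9 of them above the control median of 7.97 TPM over all tested genes. Their exonic lengths of 1307 to 3453 bases lie below the median of 4203 bases, and the GC content of their longest transcripts, 49.7 to 66.2%, lies above the median of 49.0%.

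A ratio to ATF4 in the same library does not depend on how libraries are scaled. DDIT3 was at 15.6, 15.0 and 16.1% of ATF4 in the controls and 7.63, 9.66 and 7.95% with PRMT1. GADD45B was at 33.0, 31.7 and 36.1% against 13.3, 14.4 and 13.5%. GADD45A went from a mean of 54.9 to 29.8%, CEBPB from 7.05 to 4.58% and PPP1R15A from 13.9 to 10.7%. DDIT4 was at 203, 204 and 192% of ATF4 in control replicates 1 to 3 and at 127, 128 and 134% with PRMT1. None of these 6 ratios overlapped between the groups, as held for 17.7% of 15340 tested genes in this direction and 36.5% in the other. The count follows from how the genes were chosen. TRIB3 was at 1.75, 1.69 and 1.58% of ATF4 in the controls and 3.04, 3.51 and 3.00% with PRMT1, the reverse order. SESN2 was at 6.06 to 9.91% against 11.2 to 11.7%.

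**Figure D2:**
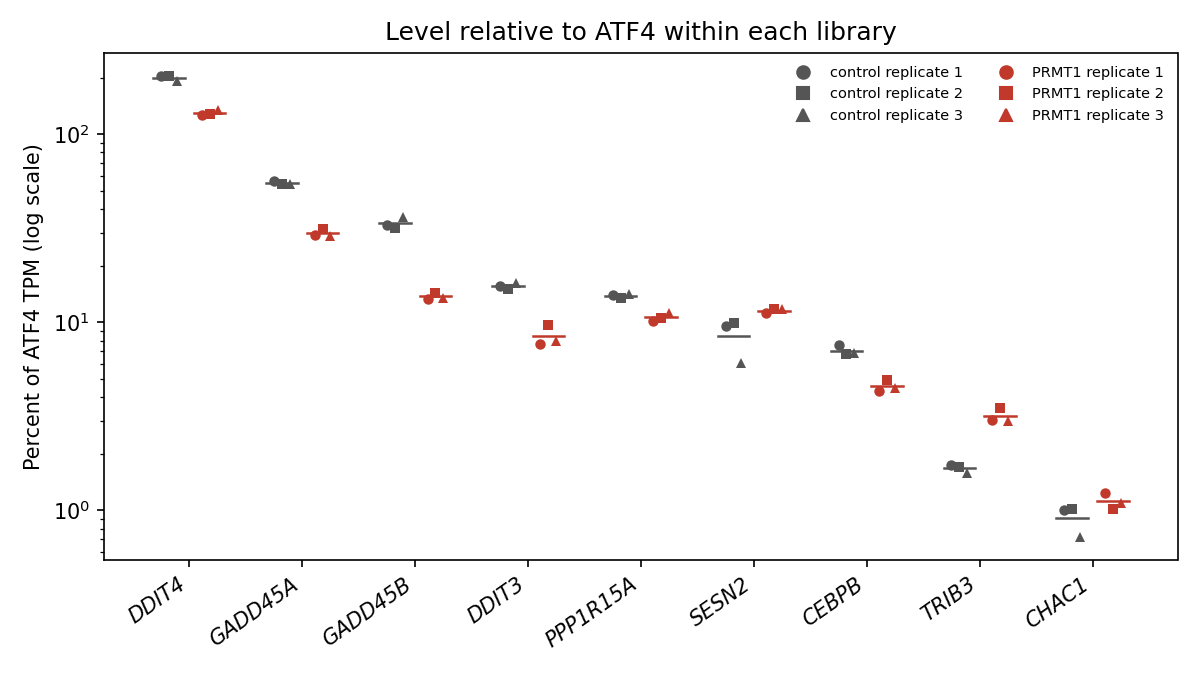
Level of 9 stress response genes as a percent of the ATF4 TPM of the same library (log axis), with controls in grey, PRMT1 libraries in red and a line at each group mean. GADD45B goes from a mean of 33.6 to 13.7% and TRIB3 from 1.67 to 3.18%, while the CHAC1 values meet at 1.02%.

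The excess of higher genes in this table moves with the scaling, since the median log2 difference of all tested genes was 0.30 in TPM, 0.006 after median-of-ratios scaling and -0.011 after quantile normalization. Over 15 alternatives, 8 of the 10 genes had the same sign in each, and ATF4 and CHAC1 did not. Most of the alternatives could not turn a sign, however. The other filters and the replicate block leave the difference of a gene as it is. Because the groups do not overlap, another pseudocount or leaving out libraries keeps the sign as well. Only the other scalings, the removal of PRMT1 and the GC correction could turn it. The GC correction also shifts each library as a whole, and the median of all tested genes was -0.029 after it. Its results are therefore not separate from those of the scalings. The difference of GADD45B lay between -1.45 and -0.99, that of DDIT3 between -1.05 and -0.59 and that of GADD45A between -1.06 and -0.56. TRIB3 stayed between 0.67 and 1.15. DDIT4 reached -0.80 after median-of-ratios scaling and -0.16 after quantile normalization, and CEBPB lay between -0.78 after median-of-ratios scaling and -0.32 with PRMT1 taken out. PPP1R15A was at -0.55 and SESN2 at 0.30 after median-of-ratios scaling. Without control replicate 3 and PRMT1 replicate 2, GADD45B was at -1.05, DDIT3 at -0.75, GADD45A at -0.71, PPP1R15A at -0.14, SESN2 at 0.45 and TRIB3 at 0.97.

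**Figure D3:**
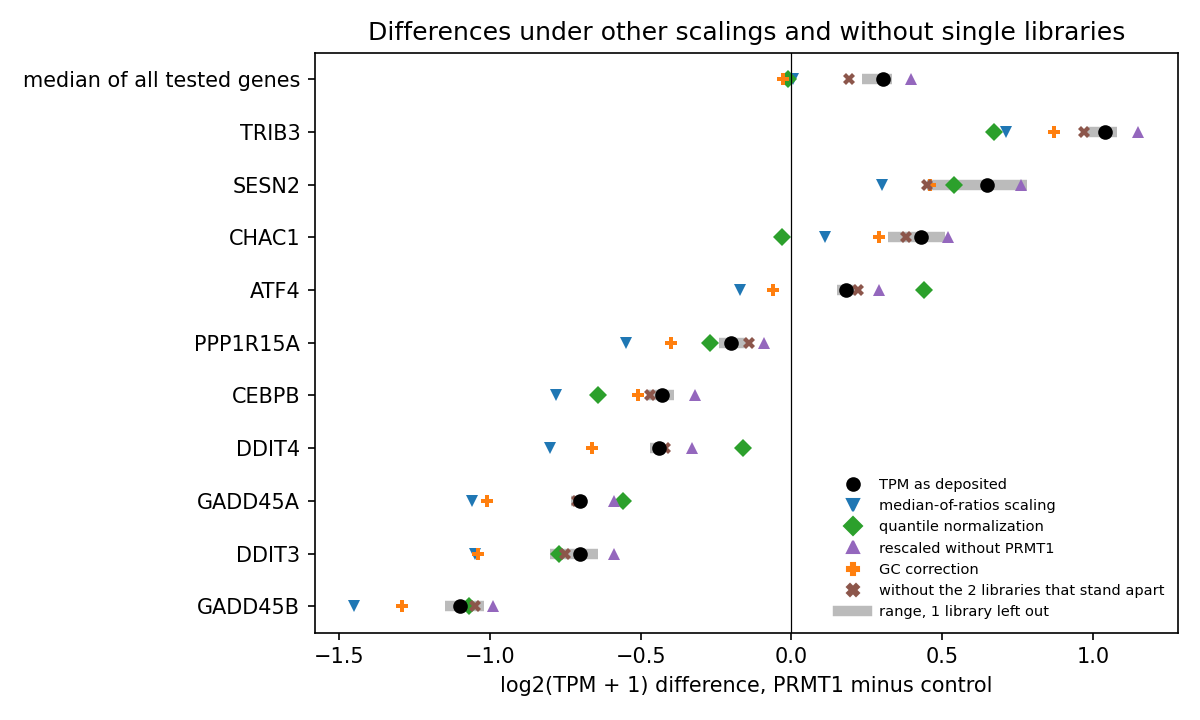
Log2 difference of each gene (PRMT1 minus control) in TPM as deposited (black), under 4 other scalings or corrections and without 2 libraries (coloured symbols), and the range when 1 library is left out (grey bar), with the median of all tested genes on top. TRIB3 and SESN2 lie right of 0 and DDIT3, GADD45A, GADD45B, DDIT4, CEBPB and PPP1R15A left of 0 under every setting shown, while ATF4 and CHAC1 cross it.

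Other genes of the pathway were taken from 5 lists written from general knowledge, but with earlier results of these data known. The shares in the lists are therefore not an independent test. The list genes were tested with limma, with Benjamini-Hochberg adjustment over all 15341 genes and a threshold of 0.05. Over all tested genes, 40.3% were called higher and 8.64% lower with PRMT1, and each list is read against these shares. Rose and fell below refer to calls in TPM as deposited.

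Among 20 genes that set the phosphorylation of eIF2 or are acted on by it, 8 rose (40.0%) and 1 fell (5.0%), with a median log2 difference of 0.24. EIF2AK3, the gene of PERK, the eIF2 kinase of the endoplasmic reticulum, rose from 2.09 ± 0.477 to 6.53 ± 0.587 TPM (SD, n = 3), a log2 difference of 1.30 (SE 0.16, limma adjusted p = 0.000644). The other eIF2 kinase genes did not pass in TPM, with 0.24 for EIF2AK2 (PKR), -0.06 for EIF2AK1 (HRI) and -0.05 for EIF2AK4 (GCN2). After median-of-ratios scaling EIF2AK1 and EIF2AK4 were called lower, at -0.41 and -0.39 (limma adjusted p = 0.00253 and 0.00908), and both also after GC correction, at -0.42 and -0.41. EIF2AK4 was called lower under quantile normalization too, at -0.41 (limma adjusted p = 0.00923). OMA1, a mitochondrial protease that signals to HRI, rose by 1.01, EIF2S1, which encodes the phosphorylated subunit of eIF2, by 0.84, IMPACT, an inhibitor of GCN2, by 0.71 and the eIF2B subunit gene EIF2B2 by 0.66 (adjusted p at most 0.00294). The gene that fell was PPP1R15B, which encodes CReP, the constitutive counterpart of GADD34, at 61.9, 66.6 and 47.1 TPM in the control libraries against 33.6, 39.9 and 32.3 TPM with PRMT1 (-0.71, SE 0.14, adjusted p = 0.00532). PPP1R15B was lower in every PRMT1 library than in any control, as held for 11.6% of all tested genes. The same was true of PPP1R15A, the other eIF2 phosphatase targeting gene, but that gene was chosen by its difference and not tested. After median-of-ratios scaling or GC correction 5 genes of this list were called higher and 7 lower. The balance turned over all tested genes as well, with 3605 higher and 3692 lower after median-of-ratios scaling and 3531 and 3986 after GC correction. The count of lower genes in the list was 3 without control replicate 3, 2 without PRMT1 replicate 2 and 5 without both. Over all tested genes it was 1513, 1258 and 2082 in these cases.

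Among 25 tested genes of amino acid supply and related ATF4 targets, 15 rose (60.0%) and 3 fell (12.0%), with a median of 0.48. CTH, which makes cysteine from cystathionine, rose from 9.46 ± 0.727 to 35.8 ± 4.87 TPM (SD, n = 3), 3.78-fold, with a log2 difference of 1.81 (SE 0.12, limma adjusted p = 9.07e-05). The neutral amino acid transporter genes SLC1A4 and SLC38A2 rose by 1.45 and 1.28, from 0.861 ± 0.384 to 4.01 ± 0.0567 TPM and from 14.4 ± 1.64 to 36.7 ± 7.82 TPM. GDF15, a stress-induced secreted hormone gene, rose by 1.04, SLC3A2, the shared chain of several amino acid exchangers, by 0.78 and ASNS, asparagine synthetase, by 0.75 (adjusted p at most 0.000825 for these 5). ASNS was at 84.9, 82.9 and 83.2 TPM in the control libraries, against 141, 160 and 125 TPM with PRMT1, and its call held in each alternative. SLC1A4, SLC7A11 and ADM2, all among the genes that rose, had control means of 0.861, 0.985 and 0.333 TPM. These genes passed the filter only through their PRMT1 libraries, so the filter favoured a higher call for them. Without a filter each was still called higher (limma adjusted p = 0.00491, 0.0155 and 0.0125). The 3 genes that fell, named after their values were seen, were SHMT2 (-0.44, adjusted p = 0.00443) of mitochondrial one-carbon metabolism and the proline synthesis genes ALDH18A1 (-0.28, adjusted p = 0.0401) and PYCR1 (-0.20, adjusted p = 0.0373). Neither ALDH18A1 nor PYCR1 passed under quantile normalization (limma adjusted p = 0.156 and 0.316), without a filter (0.0902 and 0.0634), with PRMT1 taken out (0.152 and 0.254) and without any 1 of control replicates 1 and 2 and PRMT1 replicates 1 and 3 (adjusted p from 0.095 to 0.128), which in each of these last cases left 1 gene of the list called lower. TRIB3, SESN2, CHAC1 and ATF4 lay in the direction of most of this list, which is also that of most called genes in the whole table. DDIT3, DDIT4, CEBPB, PPP1R15A and the GADD45 genes lay in the other. These directions follow from how the 10 genes were chosen.

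Among 26 genes of protein folding in the endoplasmic reticulum, 7 rose (26.9%) and 8 fell (30.8%) in TPM as deposited, with a median of -0.12. After median-of-ratios scaling or GC correction 5 were called higher and 17 lower, and without control replicate 3 and PRMT1 replicate 2 the counts were 8 and 13. Lower calls also grew over all tested genes, from 1325 in TPM to 3692 after median-of-ratios scaling, 3986 after GC correction and 2082 without the 2 libraries. Higher calls over all tested genes went from 6190 to 3605, 3531 and 5285. HSPA5, the gene of the chaperone BiP and the standard readout of endoplasmic reticulum stress, was at 9077 ± 515 TPM in the control libraries against 3715 ± 332 TPM with PRMT1 (SD, n = 3), a log2 difference of -1.29 (SE 0.08, limma adjusted p = 6.99e-05). The chaperone genes HSP90B1 and CALR fell by 0.70 and 0.47 (adjusted p = 0.00132 and 0.000367). XBP1, which encodes a transcription factor of the unfolded protein response, rose from 131 ± 6.24 to 249 ± 24.2 TPM (0.91, SE 0.09, adjusted p = 0.000251). The values per gene do not separate its spliced from its unspliced messenger. SYVN1 and EDEM1, which serve the degradation of misfolded proteins, rose by 0.59 and 0.65, but neither passed under quantile normalization (adjusted p = 0.197 and 0.0829), nor SYVN1 after median-of-ratios scaling (adjusted p = 0.094).

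Among paralogs of the 10 genes and other bZIP factors, 8 of 20 tested rose (40.0%) and 4 fell (20.0%), with a median of 0.20. TRIB1, a paralog of TRIB3, fell from 65.5 ± 8.77 to 30.9 ± 1.59 TPM (SD, n = 3), a log2 difference of -1.05 (SE 0.11, limma adjusted p = 0.000375), opposite in direction to TRIB3. TRIB1 stood at 509 to 641% of TRIB3 in the controls and 125 to 134% with PRMT1. TRIB2 had a value of 0.28 and did not pass (adjusted p = 0.119), but passed with PRMT1 taken out (0.38, adjusted p = 0.0408). CHAC2, the constitutive relative of CHAC1, rose from 11.2 ± 2.29 to 28.9 ± 6.81 TPM (1.29, SE 0.19, adjusted p = 0.00147). SESN1 rose by 0.81 (adjusted p = 0.0037), while SESN3 (0.13, adjusted p = 0.564) and DDIT4L (0.17, adjusted p = 0.687) did not pass. After GC correction SESN3 was called lower (-0.36, adjusted p = 0.0405).

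The bZIP partners differed among themselves as well. CEBPG, a C/EBP factor that pairs with ATF4, rose from 24.9 ± 1.27 to 44.1 ± 5.36 TPM (SD, n = 3), a log2 difference of 0.79 (SE 0.10, limma adjusted p = 0.000886), while CEBPB was lower. NFE2L2, the gene of NRF2, and ATF2 rose by 0.79 and 0.69, and JUND fell by 0.88 (adjusted p at most 0.00328). ATF3, an ATF4 target that was among the abundant genes at 542 ± 44.2 TPM in the controls, fell slightly to 460 ± 22.3 TPM (-0.24, SE 0.08, adjusted p = 0.0371). That call was lost with PRMT1 taken out (-0.13, adjusted p = 0.191), under quantile normalization (-0.02, adjusted p = 0.874), without the filter (adjusted p = 0.0852), without control replicate 1 or 2 (adjusted p = 0.121 and 0.116) and without PRMT1 replicate 1 or 3 (adjusted p = 0.117 and 0.103). ATF5 had a value of 0.24 and did not pass (adjusted p = 0.102), but it passed once control replicate 3 and PRMT1 replicate 2 were left out (0.33, adjusted p = 0.0323) or with PRMT1 taken out (0.34, adjusted p = 0.031).

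GADD45B and PPP1R15A are also induced early after a stimulus, as immediate early genes are. Of 20 tested immediate early genes, 13 fell (65.0%) and 6 rose, with a median of -0.64. EGR1 and FOS, transcription factor genes induced by growth factors and stress, fell by 3.19 and 1.79 (SE 0.14 and 0.08, limma adjusted p = 3.13e-05 and 3.12e-05). FOS was at 84.7 ± 0.198 TPM in the control libraries against 23.8 ± 1.36 TPM with PRMT1 (SD, n = 3). JUNB fell by 1.13 and DUSP5, a phosphatase of ERK, by 0.79 (adjusted p = 6.99e-05 and 0.000564). JUN and FOSL1 went the other way. JUN rose from 1197 ± 27.4 to 1867 ± 16.4 TPM (0.64, adjusted p = 0.000137), a call lost after median-of-ratios scaling (0.28, adjusted p = 0.0522), and FOSL1 from 5.37 ± 0.363 to 12.7 ± 0.362 TPM (1.11, adjusted p = 0.000221).

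**Figure D4:**
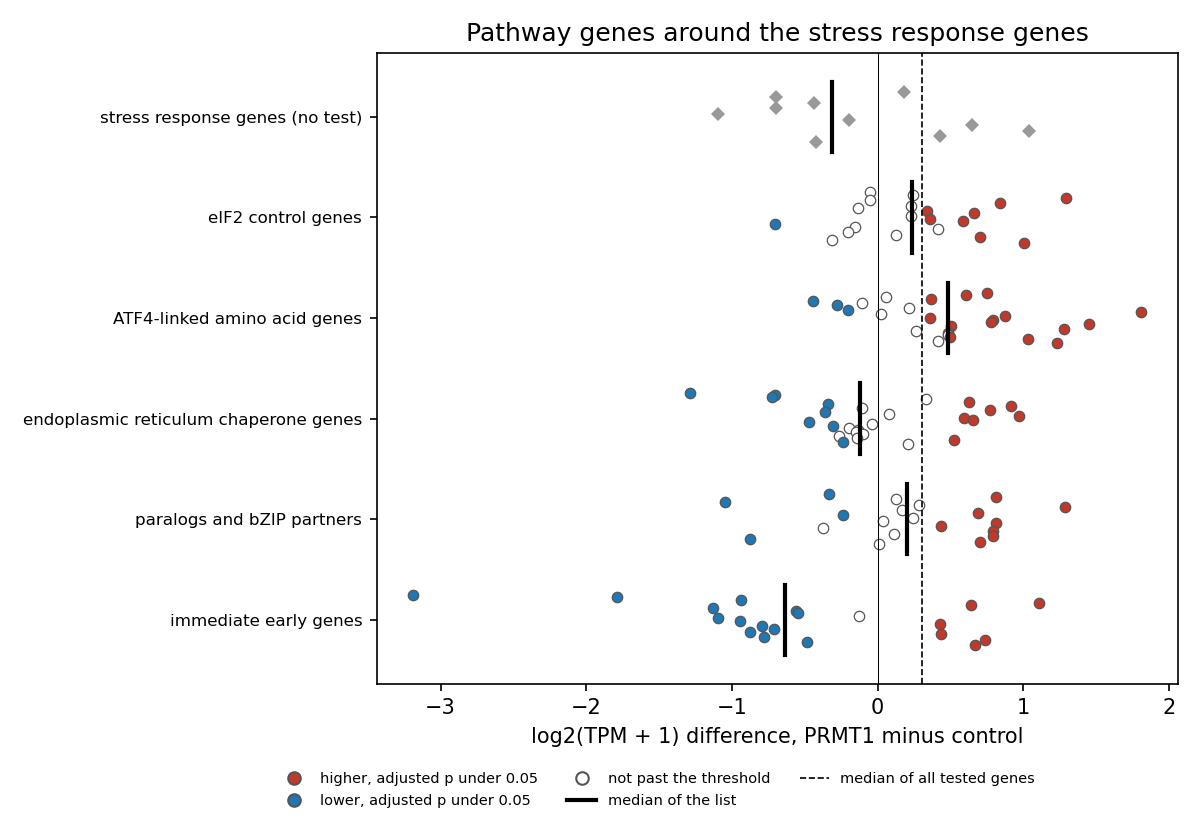
Log2 difference (PRMT1 minus control) of each gene in the 5 pathway lists, filled where the limma test passed, with the 10 stress response genes on top in grey as a description, a thick line at each median and a dashed line at the median of all tested genes (0.30). The medians run from -0.64 in the immediate early genes to 0.48 in the ATF4-linked amino acid genes.

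The genes with the most similar profiles were sought among 9092 protein-coding genes with a mean of at least 5 TPM, as the smallest root mean square distance between log2(TPM + 1) values centred over the 6 libraries. For DDIT3 they were COL13A1, TAX1BP3 and SULT1A1, at distances of 0.0564 to 0.0718. For TRIB3 they were TIPIN, CNOT4 and EXOSC2, at 0.0214 to 0.0381. No gene of the 5 lists was among these 6. With 6 libraries in 2 groups, such a distance mainly reflects the size of the difference between the groups.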

How the data were processed

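The authors deposited TPM values for 57500 genes in 6 libraries, and each column adds up to 1000000. Per the submitters' processing notes, Trimmomatic 0.36, STAR 2.5.2b, featureCounts and Subread 1.5.2 were used with build GRCh38. Annotation, strand setting and TPM calculation: not given in the sources used here. Symbols were found for 40907 identifiers. Coordinates, exonic lengths and GC content came from GENCODE 29, which held 56898 identifiers. TPM multiplied by exonic length gave whole reads once divided by a constant found for each library: of values under 50 reads, 95.6 to 95.8% were whole within 0.05 reads, where chance gives 10%. Read numbers come from this division, and a depth limit drawn from them concerns counting alone.

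The filter kept genes that reached 1 TPM in 3 or more libraries. Groups were compared by limma 3.58.1 (R 4.3.3, trend option on, no covariate) on values of log2(TPM + 1), followed by Benjamini-Hochberg adjustment. Fold changes on this scale understate changes of low genes. The fit was tested on simulated data. The members, lists, motifs and tests were chosen with earlier results of these data known. Named are all members, up to 6 genes per list with the smallest adjusted p, the members' paralogs, eIF2 kinases and chosen partners. Alternatives were another pseudocount, other filters, scalings, a GC correction, a replicate block and libraries left out. The genes most similar to GADD45B are not reported here.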

Additional observations from a re-analysis of the deposited data

How the results depend on the processing

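The 2 libraries that stand apart are control replicate 3 and PRMT1 replicate 2. After median-of-ratios scaling 3605 genes were called higher and 3692 lower, under quantile normalization 3109 and 2979, after GC correction 3531 and 3986. With PRMT1 taken out 880 were lower, and without the 2 libraries that stand apart 2082. Among eIF2 control genes, 5 were higher and 7 lower after median-of-ratios scaling and, in numbers, the same after GC correction, 3 were lower under quantile normalization and 5 without the 2 libraries that stand apart. Among ATF4-linked amino acid genes, 5 were lower after median-of-ratios scaling or GC correction, and 1 without a filter or with PRMT1 taken out. After median-of-ratios scaling 10 of them were higher, and with the 5 TPM filter 11 of the 19 genes that it left to test. Among endoplasmic reticulum genes, 17 were lower after median-of-ratios scaling or GC correction and 13 without the 2 libraries, and 4 were higher under quantile normalization. Among paralogs and partners, 7 were lower after median-of-ratios scaling, and 2 without a filter or with PRMT1 taken out. Among immediate early genes 3 were higher after median-of-ratios scaling. Leaving out 1 library gave 4661 to 5677 higher and 928 to 1513 lower genes over all, 7 to 9 and 1 to 3 for eIF2 control, 14 to 16 and 1 to 3 for amino acid genes, 6 to 8 and 6 to 10 for the endoplasmic reticulum, 7 to 8 and 3 to 4 for paralogs, and 5 to 6 and 12 to 13 for immediate early genes. The cause of these changes was not tested.

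Among the 10 genes and the list genes called in TPM as deposited, the sign turned for ATF4, CHAC1, DUSP4 and EIF2B1. For ATF4 this was after median-of-ratios scaling (-0.17) and GC correction (-0.06). For CHAC1 (-0.03) and DUSP4 (-0.03) it was under quantile normalization, and for EIF2B1 after median-of-ratios scaling (-0.01) and GC correction (-0.03). Signs also turned for list genes that were not called, among them EIF2AK2 (lowest value -0.23), ATF5 (-0.21), TRIB2 (-0.15), SESN3 (-0.36) and DDIT4L (-0.35). Calls held in every alternative in which the gene was still tested for 6 of 9 called eIF2 control genes, 11 of 18 amino acid genes, 9 of 15 endoplasmic reticulum genes, 8 of 12 paralogs and partners and 15 of 19 immediate early genes. Genes that an alternative did not test, as some amino acid genes with the 5 TPM filter, count as held there. Same-numbered libraries did not deviate together (correlations of -0.03, 0.06 and 0.02 across genes). With the replicate block, 6275 genes were higher and 1314 lower, and 16 amino acid genes were higher.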

Other observations

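FGF21, an ATF4-linked hormone gene that was too low to be tested, was at 0, 1 and 0 reads in control replicates 1 to 3 and at 9, 4 and 2 reads in PRMT1 replicates 1 to 3. EGR2 and EGR3, also untested, had 1 to 10 and 6 to 10 reads in the controls and 5 to 15 and 10 to 21 reads with PRMT1.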
